A study of Oryza sativa Japonica Group with 20 samples.

Results

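Leaf tissue of rice seedlings dried in air for 12 h was compared with leaf tissue collected at the onset of drying, 0 h. The comparison rests on 4 of the 20 arrays of the series, 2 biological replicates at each time, and covers all 27,609 genes on the array after 6 control features were left out. Plants were non-transgenic seedlings of the japonica cultivar Nakdong, 14 days old when taken from soil. They stood in water for 1 day, were blotted, and dried at 32 °C and 50% humidity in continuous fluorescent light with the roots covered. Leaves and roots were harvested separately at 0, 0.5, 2, 6 and 12 h. The 0 h plants had the same growth and the same day in water but no drying. No array holds leaf of plants kept in water until 12 h, so the hours without water, the hours in light and the hour of harvest cannot be told apart. All plants are of 1 cultivar.

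When a leaf loses water, the hormone abscisic acid accumulates, stomata close, and genes for protective proteins such as dehydrins are transcribed. Dehydrins are hydrophilic proteins that accumulate in drying tissue and in maturing seed. At the same time a leaf commonly lowers transcripts for light capture and carbon fixation, above all those of the chlorophyll a/b binding proteins, which hold the antenna pigments of the photosystems, and those for Rubisco, which fixes CO2 and whose small subunit is encoded in the nucleus.

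Of 12 genes that the study names with an identifier, 11 were found by it among the features used here. The identifier of the constitutive marker ubi (Os06g0681400) was not found, although the study shows ubi among its array results. Each gene was read by 10 probes. The oligonucleotide pairs below were designed in the study to amplify transcripts by RT-PCR. Those of 4 genes whose array values are described below are shown. They are primers, not the probes of the array. They are printed 5′ to 3′ in lower case.
ADF forward: gccgtgtacgaccacgactt
ADF reverse: ttaggaggtgtggtccttgag
rab21 forward: cgtctaccgtgagaaccaca
rab21 reverse: gtaggcgatgaagctgatga
CB4 forward: agcacaacgtgacgcagaag
CB4 reverse: acatcttccatcgcccaatc
rbcS forward: accaccgacaccggcgagaa
rbcS reverse: ttgcgctcggctagctcatc

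The 4 arrays were of like brightness. Their median gene read 2317 to 2662 in the deposited RMA intensities, which are on a linear scale, and their brightest gene read 63,105 to 65,076. The control feature of random sequences read 175.2 to 205.9, and 9.51% to 12.4% of genes lay below it. Replicates correlated across genes, which are not independent replicates, at r of 0.959 at 0 h and 0.961 at 12 h. Even so, 3171 genes at 0 h and 3568 at 12 h differed more than 2-fold between the replicates. The 7 leaf markers of the study, rbcS and CB1 to CB6, read higher on both leaf arrays than on both root arrays at 0 h. The difference was 5.18 to 6.44 on the log2 scale for rbcS and CB1 to CB5, while CB6 lay below the random-sequence feature on both root arrays.

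The dehydration genes stood well above their starting level at 12 h. All 4 genes of this kind that the study names were called higher, where a call in limma needs both an adjusted p below 0.05 and at least a doubling or halving. Over all genes, 5.53% were called higher and 10.2% lower, so these 4 were not typical of the array, but the study named 2 of them for their strong induction on these same arrays and the other 2 as known markers. The choice of genes is therefore no independent evidence of the direction.

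rab21 (AK121952) encodes a dehydrin, a long-used marker of water loss in rice. It read 11,038 and 8435 before drying and 50,970 and 57,281 after 12 h. The arrays of 0.5 h read 14,492 and 9262, those of 2 h read 21,739 and 23,853, and those of 6 h read 46,026 and 44,502. Both replicates thus lay higher at each of 2, 6 and 12 h than at 0 h, and both were highest at 12 h. The change from 0 h to 12 h was 2.49 ± 0.28 (log2, SE, n = 2 against 2), or 5.6-fold, with an adjusted p of 0.000159. Between 2 h and 12 h rab21 differed by 1.25 ± 0.28 on the log2 scale, with an adjusted p of 0.0512, which did not pass the test.

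ADF (Os03g0820500) is annotated by the study as a putative actin depolymerizing factor, a class of protein that severs and disassembles actin filaments. Its intensity went from 8819 and 8230 before drying to 44,054 and 47,907 after 12 h, with no overlap between the groups. Most of that distance was present at 2 h, when ADF read 39,633 and 44,139. The change at 12 h was 2.43 ± 0.27 (log2, SE), or 5.39-fold, with an adjusted p of 0.000126. ADF and rab21 passed the test under all 31 alternatives run for this comparison, with adjusted p of at most 0.014 and 0.0147.

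AWPM (AK102039), an AWPM-19-like protein of a plant membrane protein family, was more variable. Its replicates read 6537 and 2656 before drying, and 20,566 and 18,686 after 12 h. The change of 2.23 ± 0.47 (log2, SE), or 4.7-fold, had an adjusted p of 0.00578. Without replicate 2 of 0 h the change was 1.58 with an adjusted p of 0.0718. Replicate 1 of AWPM also read higher than replicate 2 in between, with 10,742 against 4196 at 0.5 h, 14,116 against 8722 at 2 h and 14,074 against 9373 at 6 h.

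dip1 (AK070197), a dehydration marker, began at a higher fraction of its final reading. It started from 17,326 and 24,480, had reached 40,463 and 40,120 by 2 h, and ended on 47,156 and 45,262. The increase of 1.17 ± 0.28 (log2, SE), or 2.24-fold, had an adjusted p of 0.012. A fit to the 10 leaf arrays alone took the call away (adjusted p 0.0573), as did a fit to the 4 compared arrays (0.0673) and leaving out 0 h replicate 1 (0.111), 12 h replicate 1 (0.0692) or 12 h replicate 2 (0.0632).

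**Figure D1:**
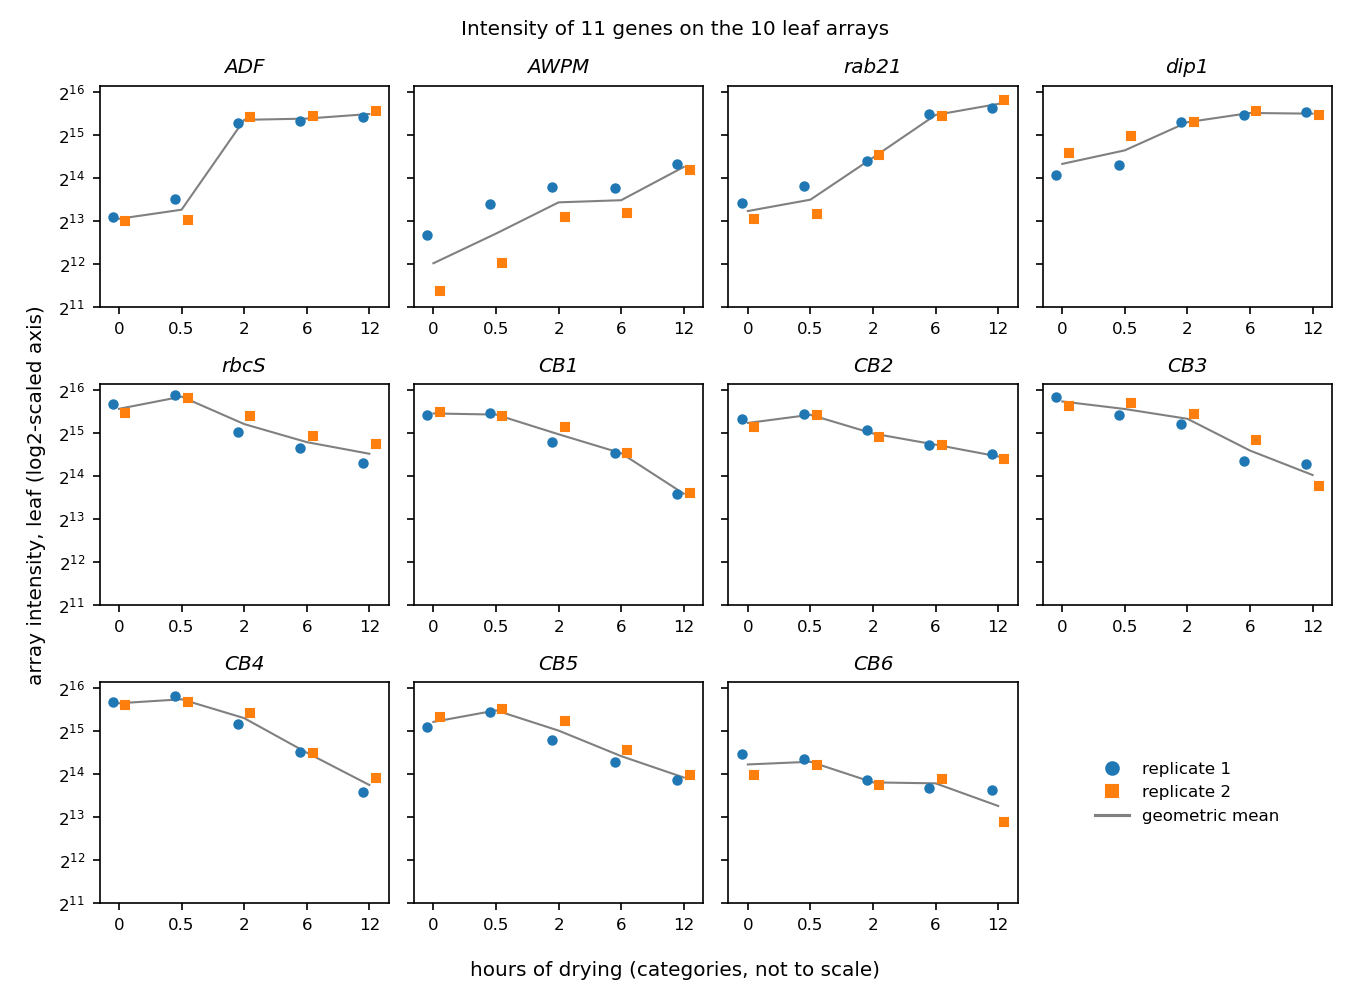
Array intensity of 11 study genes on the 10 leaf arrays (vertical axis on a log2 scale) by hours of drying, with both replicates as points and their geometric mean as a line. ADF, AWPM, rab21 and dip1 lie higher at 12 h than at 0 h on both arrays, and rbcS and CB1 to CB6 lie lower on both.

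The photosynthesis genes lay lower at 12 h. In each of the 6 chlorophyll a/b binding protein genes both 12 h arrays read below both 0 h arrays, a pattern shown by 33.4% of all genes. Of these 6, CB1, CB3 and CB4 were called lower, against 10.2% of all genes, and the median change of the 6 was -1.50 on the log2 scale beside -0.05 for all genes tested. In whole leaves, fewer cells of a type and less RNA per cell cannot be told apart.

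CB4 (AK060222) had the lowest adjusted p of the 6. It read 52,302 and 50,188 before drying, 36,967 and 43,993 after 2 h, 23,356 and 22,934 after 6 h, and 12,340 and 15,340 after 12 h. Both replicates lay lower at each time from 2 h on than at the time before. The change at 12 h was -1.90 ± 0.38 (log2, SE), a mean 73% below that of 0 h, with an adjusted p of 0.0047. Among the alternatives other than a test against a log2 change of 1 (adjusted p 0.3), the adjusted p of CB4 was at most 0.0417.

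CB1 (AK060904) had replicates close to each other, reading 43,665 and 46,160 before drying and 12,304 and 12,398 after 12 h. Its change of -1.86 ± 0.51 (log2, SE) had an adjusted p of 0.0226, which rose to between 0.0883 and 0.104 when any 1 of the 4 compared arrays was left out. CB3 (AK066762) read 58,566 and 50,626 before drying and 19,823 and 14,033 after 12 h, a change of -1.71 ± 0.45 (log2, SE) with an adjusted p of 0.0205. The call of CB3 was lost without 0 h replicate 1 (0.107), 0 h replicate 2 (0.0726) or 12 h replicate 2 (0.145). The SE comes from all 10 groups, so a gene that is tight at 0 h and 12 h but spread elsewhere, as CB1 is, keeps a wide one.

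CB5, CB2 and CB6 had lower values that did not pass the test. CB5 (AK119534) read 34,875 and 41,305 before drying and 14,922 and 16,137 after 12 h, a difference of -1.29 ± 0.51 (log2, SE) with an adjusted p of 0.106. With only the 10 leaf arrays in the fit CB5 was called, with an adjusted p of 0.0279, and likewise with only the 4 compared arrays (0.0423). CB2 (AK119176) read 40,821 and 36,380 before drying and 23,502 and 21,489 after 12 h, a difference of -0.78 ± 0.38 (log2, SE) with an adjusted p of 0.193. CB6 (AK106085) read 22,672 and 16,165 before drying and 12,632 and 7630 after 12 h, a difference of -0.96 ± 0.54 (log2, SE) with an adjusted p of 0.266.

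rbcS (AK121444), the Rubisco small subunit, also had both 12 h arrays below both 0 h arrays without passing the test. It read 51,988 and 44,987 before drying, 60,069 and 57,633 after 0.5 h, 33,313 and 43,004 after 2 h, 25,792 and 31,061 after 6 h, and 20,208 and 27,288 after 12 h. The mean at 12 h was 51% below that of 0 h. The difference was -1.04 ± 0.81 (log2, SE) with an adjusted p of 0.462. The root arrays of 12 h, which enter the same estimate of the spread, read 3249 and 12,891 for rbcS. Whether the array's scale is compressed at readings as high as those of rbcS, CB3 and CB4 at 0 h was not tested.

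The whole leaf transcriptome had more genes lower than higher at 12 h. Of the 27,609 genes, 1528 were called higher (5.53%) and 2813 lower (10.2%), 15.7% together. At an unadjusted p under 0.05 there were 8014 genes. Both 12 h arrays lay above both 0 h arrays in 23.7% of genes and below both in 33.4%. The median change of all genes was -0.05 on the log2 scale, with quartiles at -0.65 and 0.39, and centring each array on its median moved that median to 0.0984 and the calls to 2039 higher and 2453 lower. The share of calls that were higher was 35.2% as deposited, 43.3% after quantile normalization of all arrays and 45.4% after centring. Each of the 4 compared arrays mattered to the numbers. Leaving out replicate 1 of 0 h gave 831 higher and 1657 lower, and leaving out its replicate 2 gave 1090 and 1334. Leaving out replicate 1 of 12 h gave 899 and 1606, and leaving out its replicate 2 gave 739 and 1383, with the lone array assumed to vary like the other groups. None of the genes called under these settings had the opposite call in the main comparison. As these settings reuse the same arrays, this is no independent evidence of the direction.

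The direction depended on the size of the change. Among calls beyond 4-fold, 700 genes were higher and 1071 lower. Beyond 8-fold, as fitted, the order turned, with 274 higher and 207 lower, and beyond 16-fold 90 genes were higher and 33 lower. The called genes had a median change of 1.90 in the higher set and -1.79 in the lower set on the log2 scale. In 143 of the genes called higher both 0 h arrays lay below the random-sequence feature, and in 386 of the genes called lower both 12 h arrays did. For these only a bound can be given, which raises each dim reading to that feature. With such genes set to their bound, the medians were 1.82 and -1.66.

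Intensity also separated the directions. Genes were ranked by their mean over the 4 arrays and divided into 5 bins of equal size. In the dimmest bin 172 genes were called higher and 528 lower, and in the bin above it 295 and 930. In the brightest bin, with mean readings from 7413 up, 329 were called higher and 175 lower. The median SE of a change was 0.58 in the dimmest bin and 0.29 in the brightest. The mean used to rank the genes includes the 12 h arrays that define the calls.

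**Figure D2:**
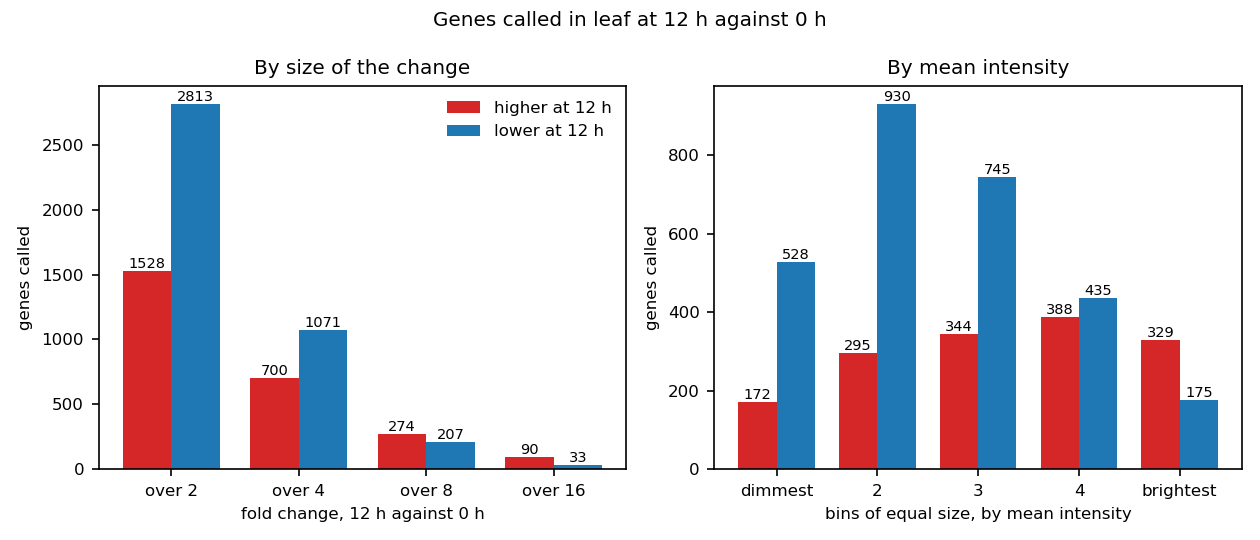
Number of genes called in leaf at 12 h against 0 h, higher in red and lower in blue, by fold change past which they are counted (left) and by bin of mean intensity over the 4 arrays (right). Calls lower outnumber calls higher beyond 2-fold and 4-fold, and calls higher outnumber them beyond 8-fold, at 274 against 207, and in the brightest bin, at 329 against 175.

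The largest called changes among features above the random-sequence feature were in ones that have no name in the sources used here. The identifiers matched no gene in the reference table, so these features are named by identifier only. They are the 2 largest in each direction among called features that read above the random-sequence feature on all 4 arrays, with both 12 h arrays beyond both 0 h arrays. They were chosen by their change on these same arrays, so a call kept under the alternatives is no independent evidence.

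AK063716 read 232 and 319 before drying and 21,804 and 22,417 after 12 h. By 2 h it already read 21,538 and 15,058, against 504 and 561 at 0.5 h. The change at 12 h was 6.34 ± 0.36 (log2, SE), with an adjusted p of 1.33e-06. AK119689 rose later: it read 523 and 234 before drying, 1939 and 3261 after 2 h, 16,356 and 6704 after 6 h, and 21,571 and 22,661 after 12 h. Its change was 5.98 ± 0.45 (log2, SE), with an adjusted p of 1.18e-05.

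Among features that fell, AK099560 read 17,605 and 20,116 before drying and 519 and 416 after 12 h. Its replicates disagreed in between, with 8409 and 19,421 after 0.5 h, 2452 and 6003 after 2 h, and 524 and 2941 after 6 h. The change at 12 h was -5.34 ± 0.67 (log2, SE), with an adjusted p of 0.000306. AK059414 read 3705 and 6943 before drying, 281 and 673 after 2 h, and 272 and 230 after 12 h. Its change was -4.34 ± 0.65 (log2, SE) with an adjusted p of 0.000865. The 12 h readings lie close to the random-sequence feature, at 205.9 and 200.2 on those arrays. The alternative without the dimmest 25% of genes left AK059414 out. All 4 features kept their call under every alternative in which they were tested, with adjusted p of at most 0.0157.

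No gene was called between leaf at 12 h and leaf at 6 h by limma, where the lowest adjusted p was 0.804 and 1590 genes had an unadjusted p under 0.05. The count was 0 under each of the alternatives run, including the 4 arrays alone. This does not show that the times are alike. Among the study genes, ADF differed by 0.11 ± 0.27, rab21 by 0.26 ± 0.28 and CB4 by -0.75 ± 0.38 (12 h minus 6 h, log2, SE).

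Set against 2 h, the first time at which the leaves had rolled, 47 genes were called higher at 12 h (0.17% of genes) and 237 lower (0.858%). Before drying the median intensity of the 47 genes was 808. It was 1222 after 2 h, 3903 after 6 h and 6200 after 12 h, and that of the 237 at the same times was 659, 852, 423 and 173. By construction these genes differ at 2 h and 12 h, while the 0 h and 6 h arrays entered their choice only through the shared estimate of the spread. In 115 of the 237 both 12 h arrays lay below the random-sequence feature. None of the 11 study genes was called in this comparison. The counts were unstable, and leaving out any 1 of the 20 arrays moved at least 1 of them by over 1.5 times. No gene was called with only the 10 leaf arrays or with only the 4 arrays compared, and 1 higher and 0 lower were called without 12 h replicate 2. At the other end, 131 higher and 2628 lower were called without 2 h replicate 1, but 3 and 4 without 2 h replicate 2. Quantile normalization of all arrays gave 153 higher and 120 lower, so that the direction held by most calls turned.

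The same calls can be followed back through the shorter times, which are compared with the same 0 h arrays. The 1528 genes called higher at 12 h had a median change of 0.18 after 0.5 h, 1.43 after 2 h, 1.64 after 6 h and 1.90 after 12 h on the log2 scale. In the same order the 2813 called lower had medians of -0.92, -0.99, -1.52 and -1.79. Over all genes the medians were -0.17, 0.07, 0.06 and -0.05. Leaf 0.5 h replicate 1 stood apart, with the random-sequence feature at 362.4 and 21.1% of genes below it. Both sets were chosen by their change at 12 h, which favours larger medians at 12 h than at the other times. Because the 0 h arrays are shared, a low or high reading there moves all 4 values together, and these medians are a description with no test.

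**Figure D3:**
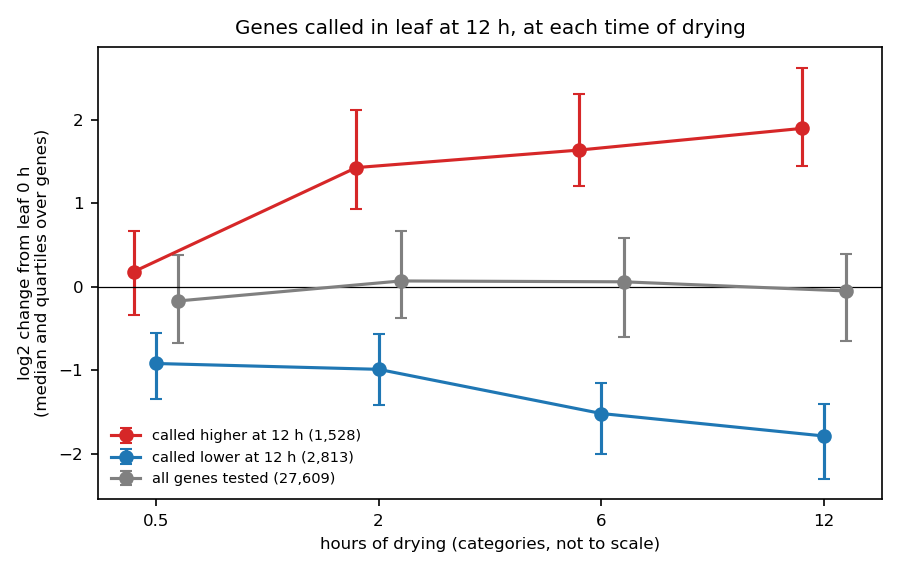
Median log2 change from leaf 0 h, with quartiles over genes as bars, for the 1,528 genes called higher and the 2,813 called lower at 12 h and for all 27,609 genes, by hours of drying. The median of the higher set is 1.43 at 2 h and 1.90 at 12 h, and that of the lower set -0.99 and -1.79. Both sets were chosen by their change at 12 h, which favours larger medians at that time.

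Root tissue of the same harvests shared part of the response. In root at 12 h against 0 h, 913 genes were called higher (3.31%) and 2998 lower (10.9%). Genes called higher in both tissues numbered 444, which is 29.1% of the leaf list and 48.6% of the root list. Genes called lower in both numbered 760, or 27.0% of the leaf list and 25.4% of the root list. Opposite calls were few: 57 genes were higher in leaf and lower in root, and 21 the reverse.

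The difference between the tissues was tested in 1 contrast, the change in leaf minus the change in root. It was more positive in leaf for 784 genes (2.84%) and more negative for 463 (1.68%). In the first set the median change was 0.71 in leaf and -2.10 in root, and 494 of the 784 were called lower in root without a call in leaf. In the second the median was -1.85 in leaf and 0.48 in root, and 343 of the 463 were called lower in leaf without a call in root. By construction the leaf and root changes differ in both sets, so the gap between these medians is no separate result. The counts depended on single arrays. Dropping replicate 1 or 2 of leaf 0 h left 364 and 211, or 350 and 146. Dropping replicate 1 or 2 of leaf 12 h left 515 and 298, or 284 and 139. For root 0 h the corresponding counts were 245 and 125, or 505 and 285, and for root 12 h they were 307 and 192, or 372 and 162. Dropping either array of leaf 0.5 h gave 1237 and 707, and either array of root 0.5 h gave 827 in the second set.

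The dehydration genes did not pass this test. In root, rab21 read 9282 and 7446 before drying and 49,169 and 56,465 after 12 h, close to its leaf readings at both times, and the difference between the changes was -0.18 ± 0.40 (log2, SE; adjusted p 0.883). ADF differed by -0.65 ± 0.38 (adjusted p 0.394), and AWPM, with a root change of 3.94 ± 0.47 beside 2.23 in leaf, by -1.71 ± 0.66 (adjusted p 0.169). dip1 read 35,397 and 31,401 in root already at 0 h, changed there by 0.21 ± 0.28, and differed by 0.96 ± 0.39 (adjusted p 0.198).

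The photosynthesis genes did. For rbcS and each of CB1 to CB6 the difference between the changes passed the test, and it was negative in all 7. Over all genes, 1.68% had such a call. The study chose CB1 to CB6 for a rise in root on these same arrays, and the difference between the changes contains that rise. For those 6, therefore, neither the direction in root nor the sign and test of the difference is independent evidence. The difference between the changes ran from -2.83 for CB2 to -4.73 for CB6. All 7 were called higher in root, against 3.31% of all genes, while in leaf 3 of the 7 were called lower, against 10.2%. CB4, for example, read 996 and 638 in root before drying and 2291 and 4580 after 12 h, a root change of 2.02 ± 0.38 beside -1.90 in leaf, with a difference of -3.92 ± 0.54 (log2, SE; adjusted p 0.00253). CB6 read 102 and 84.3 in root at 0 h, below the random-sequence feature on both arrays, so its difference of -4.73 ± 0.76 (adjusted p 0.00541) depends on readings at background. At 12 h all 7 still read higher on both leaf arrays than on both root arrays, by 1.83 to 2.96 on the log2 scale. For rbcS and CB1 to CB5 this was less than the 5.18 to 6.44 at 0 h.

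These differences were not equally firm. CB3, CB4 and CB6 kept their call with any 1 array left out. rbcS, at -4.58 ± 1.14 (adjusted p 0.0379), lost it in 9 of those settings, CB1 (0.0165) in 5, CB5 (0.0163) in 4 and CB2 (0.0114) in 1 and also with only the 8 arrays compared (0.0505), with adjusted p of up to 0.15 for rbcS without root 12 h replicate 2. In a test against a log2 change of 1, CB4 and CB6 kept their call. CB3 (adjusted p 0.093), CB5 (0.146), CB1 (0.152), CB2 (0.163) and rbcS (0.224) lost it there. The root arrays of 12 h differed from each other in each of the 7, with replicate 2 above replicate 1, as for rbcS at 12,891 against 3249.

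**Figure D4:**
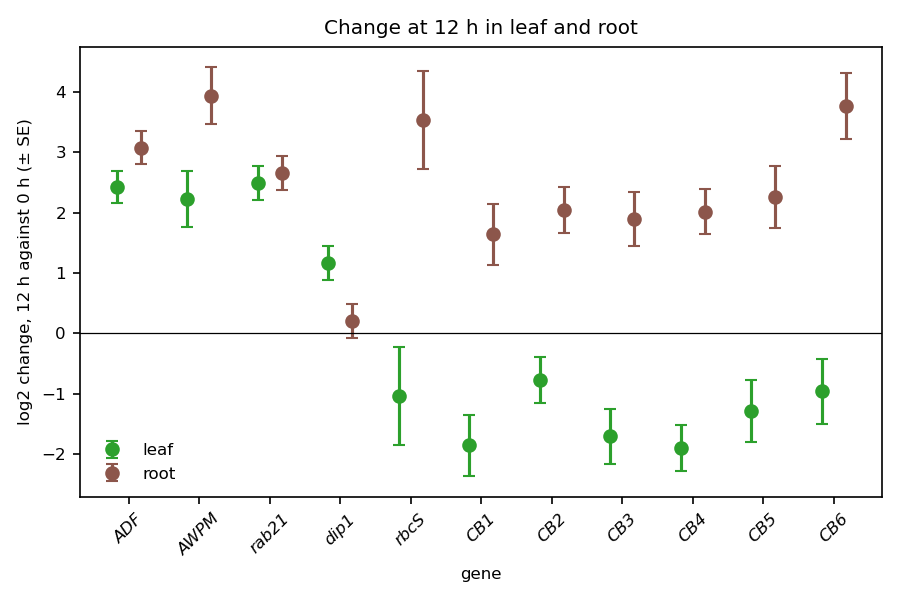
Log2 change at 12 h against 0 h in leaf and in root for 11 study genes, with standard errors of the fit as bars. ADF, AWPM and rab21 lie above 0 in both tissues, and rbcS and CB1 to CB6 lie below 0 in leaf and above 0 in root.

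Genes of the organelle genomes carry identifiers of their own, CAA for the plastid and BAC for the mitochondrion. Plastid genes encode parts of the photosystems, of Rubisco and of the plastid's own ribosomes, and mitochondrial genes encode parts of the respiratory chain. None of the 108 plastid genome genes was called at 12 h by limma, against 15.7% of all genes. The lowest adjusted p among them was 0.0757 and 7 had an unadjusted p under 0.05. Their median intensity read 14,902 and 6372 on the 0 h arrays and 15,560 and 13,150 on the 12 h arrays. The 0 h replicates thus differed by more than did the times, and replicate 1 at 0 h lay between the 12 h arrays. The median change was 0.34, and both 12 h arrays lay above both 0 h arrays in 25 of the 108 (23.1%, beside 23.7% of all genes) and below both in 7 (6.48%, beside 33.4%).

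Of the 53 mitochondrial genome genes, 1 was called higher (1.89%, beside 5.53% of all genes) and 0 lower, with 12 at an unadjusted p under 0.05. Their median read 1692 and 799 before drying and 4182 and 2309 after 12 h, so both 12 h medians were above both 0 h medians. The median change over the 53 was 1.20 on the log2 scale, with a median SE of 0.67. Both 12 h arrays lay above both 0 h arrays in 30 of the 53 (56.6%, beside 23.7% of all genes) and below both in 0. The medians of 2 h (4276 and 7758) and of 6 h (6072 and 4864) were higher than those of 12 h on the same replicate. Those of 0.5 h were 1087 and 4600, so replicate 2 there lay above both 12 h medians and replicate 1 below both. The 53 genes were read on the same arrays and are not independent replicates. The gene called was BAC19853.2, chosen here after its values were seen, which read 3572 and 1864 before drying and 8824 and 10,526 after 12 h, a change of 1.90 ± 0.57 (log2, SE) with an adjusted p of 0.0355. Leaving out any 1 of the 4 compared arrays took this call away (adjusted p 0.0512 without 0 h replicate 1, 0.245 without 0 h replicate 2, 0.105 without 12 h replicate 1 and 0.165 without 12 h replicate 2), as did a fit to the 10 leaf arrays alone (0.0929).

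**Figure D5:**
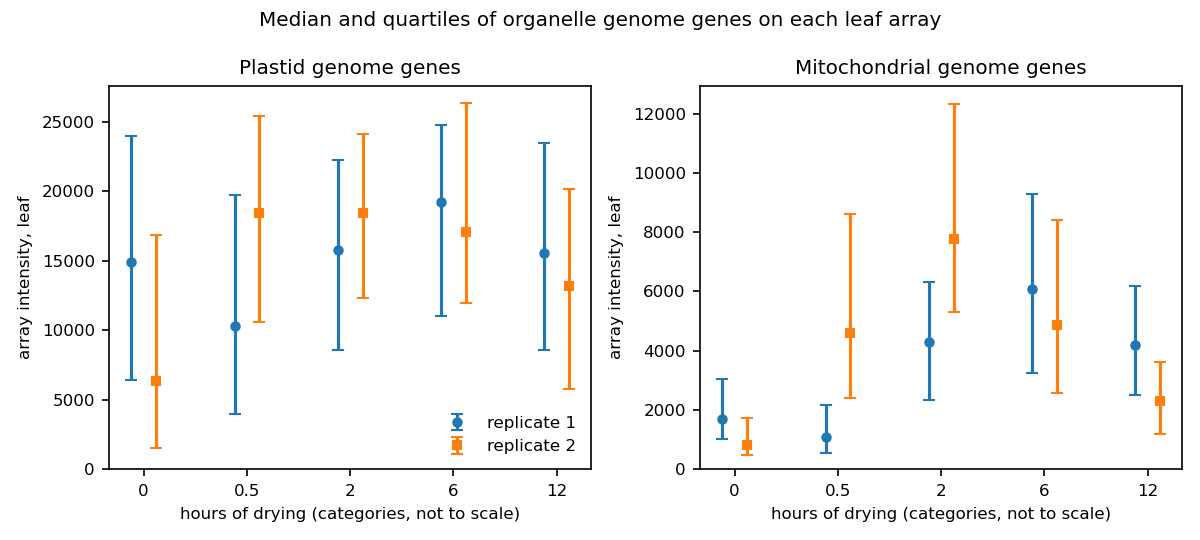
Median array intensity, with quartiles over genes as bars, of 108 plastid and 53 mitochondrial genome genes on each leaf array, by hours of drying. The mitochondrial medians are 1692 and 799 before drying and 4182 and 2309 after 12 h, while the plastid medians of the 0 h replicates, 14,902 and 6372, lie further apart than those of 12 h.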

How the data were processed

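RNA of leaf and root was labelled with Cy3 and hybridised to NimbleGen rice 3′-tiling arrays, 2 biological replicates for each of 10 groups. The authors deposited 1 intensity for each gene, made with RMA and not log-transformed. The background step, the version and the set of arrays normalized together are not given in the sources used here. The number of probes per gene was read from a deposited probe table, whose intensities were not used. Supplementary fold changes of the authors were not used.

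The deposited intensities were neither renormalized nor filtered before taking log2. All 20 arrays entered a single linear model of 10 groups in limma 3.58.1 (R 4.3.3), so the groups share 1 estimate of the spread (residual df 10, prior df 3.43). Contrasts were leaf 12 h against 0 h, 6 h and 2 h, root 12 h against 0 h, and the leaf change minus the root change. P-values were adjusted by Benjamini-Hochberg over 27,609 genes within each contrast, and a call needs an adjusted p below 0.05 with a log2 change beyond 1 or -1. Fold changes are those of the fit. The number of arrays limits the precision.

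Named genes were the study's own 12 and, for features without a name, at most 2 rising and 2 falling, by size of change among those called, not overlapping between groups and above the random-sequence feature. The genes, lists and rule were chosen with earlier results of these data known. Of the 27,609 identifiers 0 matched the reference table, so 59 lists of genes by function could not be applied. Alternatives were other normalizations, a filter, a floor, other priors and subsets of arrays, a block for the replicate number, and fits without 1 array. The procedure was tested on simulated data.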

Additional observations from a re-analysis of the deposited data

Results flagged for a closer look

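The change at 12 h differed between leaf and root, by the test of the difference, in 9 features. They came from the 11 study genes and the 4 features without a name described above. In each of the 9 the change was more negative in leaf. Over all genes, 1.68% were called more negative in leaf and 2.84% more positive. On the log2 scale the leaf change minus the root change was -4.58 for rbcS, -3.51 for CB1, -2.83 for CB2, -3.59 for CB3, -3.92 for CB4, -3.55 for CB5 and -4.73 for CB6. CB1 to CB6 had been chosen in the study for a rise in root, and AK099560 and AK059414 were chosen here for their leaf change. The difference contains both changes, so its sign and its test in these features are no independent evidence. The leaf change minus the root change was -5.67 for AK099560 (adjusted p 0.00701) and -5.21 for AK059414 (adjusted p 0.00842). AK099560 read 386 and 205 in root at 0 h and 257 and 484 at 12 h. AK059414 lay below the random-sequence feature on all 4 of those root arrays, so its root change is at background. With 2 arrays in each group no single array could be tested as an outlier.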

How the results depend on the processing

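Leaf 12 h against 0 h gave 1528 genes higher and 2813 lower. With only the 10 leaf arrays 998 were higher, and a test against a doubling (treat) gave 271 and 223. With each array left out in turn the counts ranged from 739 to 1841 and from 1334 to 3390. Leaf 12 h against 6 h gave 0 throughout. Leaf 12 h against 2 h gave 47 and 237. Quantile normalization gave 153 and 120 over all arrays and 122 and 83 within each tissue. The counts were 119 and 388 after centring, 31 and 48 without the dimmest 25% of genes, and 56 lower with a trended, robust prior. It gave 118 and 750 with values raised to the random-sequence feature, 309 and 2739 without leaf 0.5 h replicate 1 and root 0.5 h replicate 2, and 0 and 0 with treat, with only the 10 leaf arrays and with only the 4 arrays compared. With each array left out it ranged from 1 to 197 and from 0 to 2628. The difference between leaf and root gave 784 and 463. It gave 85 and 27 with treat, 823 and 822 lower with quantile normalization of all arrays and within each tissue, 701 lower with values raised to the random-sequence feature, 1751 and 1285 without the same 2 arrays of 0.5 h, and 1035 and 644 with only the 8 arrays compared, a setting chosen after seeing the data. With each array left out it ranged from 245 to 1237 and from 125 to 827. The fit to leaf arrays alone holds no root arrays and gives no value for it. With the replicate number as a block, the counts were 1819 and 3317 against 0 h, 107 and 854 against 2 h, and 1212 and 802 for leaf against root. Deviations of arrays with the same number correlated at 0.435 between leaf 0 h and 12 h and at 0.622 between leaf 6 h and 12 h. Among the 0 h and 12 h groups of both tissues they correlated at 0.204 to 0.499. Of all 45 pairs of groups 38 were above 0.1, with the lowest at -0.164 and the highest at 0.72. The labels do not say what the number marks, and with 2 numbers these correlations alone were not taken as pairing. CB5 alone of the genes named gained its call with the block (leaf 12 h against 0 h, adjusted p 0.045), and none lost it. Among single genes, the difference between leaf and root for rab21 turned from -0.18 to 0.0154 (adjusted p 0.996) without leaf 0 h replicate 1, was -0.373 without leaf 0 h replicate 2, and was never called. Beyond that, 34 of 540 values from leaving out an array lost their call and 0 gained it. Under the other settings 15 of 285 lost it, 11 of them under treat, and 3 gained it. Both totals include results not called in the main comparison, which could not lose a call. The 540 also include fits without an array that the comparison does not use. Most of the losses there came from leaving out an array of the groups compared. The cause of these shifts was not tested.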
